A study of Homo sapiens with 32 samples.

Results

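The HOXA genes HOXA3, HOXA4, HOXA5, HOXA6, HOXA7, HOXA9, HOXA10 and HOXA11 and their cofactor genes MEIS1 and PBX3 were looked up in 32 acute myeloid leukaemia (AML) cell lines by taking each probe set that the array's annotation table assigns to any of them. The table used here named 3 of the 54675 probe sets for 2 of the 10 genes: 204069_at and 1559477_s_at for MEIS1, and 204082_at for PBX3. The 8 HOXA genes of the set are not analysed here. What follows therefore describes the cofactors MEIS1 and PBX3, and beside them the neighbouring transcripts of the HOXA cluster that the table does name, which are HOXA2, EVX1 and the non-coding genes HOXA-AS2, HOXA-AS3, HOXA11-AS and HOTTIP, with 1 probe set (231365_at) listed for both HOXA10-AS and the microRNA gene MIR196B.

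HOXA genes encode homeodomain transcription factors that are active in blood stem and progenitor cells and are turned down as cells mature. MEIS1 and PBX3 encode homeodomain proteins of the TALE class, which bind DNA together with HOXA proteins and strengthen their hold on target genes. In AML with a fusion of KMT2A (MLL), a histone methyltransferase gene, the fusion protein is known to keep HOXA9, MEIS1 and PBX3 active, and HOXA9 with MEIS1 is a well-known driver of leukaemia in mice.

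Total RNA of each line was hybridised to 1 Affymetrix array, in a series made to set gene expression beside sensitivity to inhibitors of PIM kinases; no treatment is named for the arrayed cultures. Class membership was taken from common knowledge of the named lines and not from the sample labels: 6 lines with a KMT2A fusion (ML-2, MOLM-13, MV4-11, NOMO-1, SHI-1 and THP-1), 7 of erythroid or megakaryoblastic origin (F-36P, HEL, KMOE-2, MO7E, OCI-M1, OCI-M2 and SET2) and 19 other AML lines. HL-60 with PLB-985 and KG-1 with KG-1A are known as sublines of the same origin and were averaged in tests, which left 30 units, 17 of them other AML. Of the lines, F-36P was cultured with IL-3 at 5 ng/ml, and the 3 OCI-AML lines (OCI-AML2, OCI-AML3, OCI-AML5) with GM-CSF or SCF. The medium stated for 23 further units names no cytokine, with an entry written as KG1 and a question mark read as KG-1A. The labels state no medium for MV4-11, MOLM-13 or MOLM-16. All lines stand for AML as long-grown cultures, each from a single patient's cells, and nothing says that any was grown more than once for the arrays.

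The leukocyte genes PTPRC (CD45) and RUNX1 lay above the array median, the median of all probe sets on that array, in all 32 lines. CEBPA did so in 30, SPI1 and ITGAM in 28 each, and CD38 in 19. The lymphoid genes CD3D, CD3E and MS4A1 did so in 15, 13 and 12 lines. Of the stromal and epithelial markers, COL1A1 did so in 32, DCN in 21, COL1A2 in 17, EPCAM in 9 and COL3A1 in 1, so a place above the array median alone does not show that a gene is expressed. The arrays of NOMO-1 and GF-D8 had a median signal of 198.4 and 243.3, against 68.2 to 115.4 on the other 30, so dim probe sets read high on them. In 8 lines the GAPDH ratio (3′ over 5′ control probe set), a measure of RNA integrity, was 2.418 to 7.082, against 0.871 to 1.239 in the other 24. These 8 were 4 of the 6 fusion lines (ML-2, MOLM-13, NOMO-1 and THP-1), 4 of the 19 other AML lines (GDM-1, GF-D8, HL-60 and NB-4) and 0 of the 7 erythroid or megakaryoblastic lines.

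MEIS1 lies on chromosome 2 (2:66435125-66573869, GRCh38.p14) and PBX3 on chromosome 9 (9:125747373-125967377), away from the HOXA cluster on chromosome 7. Their promoters in RefSeq (GRCh38.p14, plus strand, 250 bases before to 50 bases after an annotated start, so they hold the start of the first exon) are shown because they differ in make-up while belonging to cofactors of the same proteins. The PBX3 window begins at 125747933, inside the gene interval given above, so it belongs to a start downstream of the gene's first base. The MEIS1 window begins before its gene's first base, so the windows lie at unlike starts. Capitals mark the letters TGACAG, the core bound by MEIS proteins, or CTGTCA, its other strand.
MEIS1 chr2:66434875-66435174: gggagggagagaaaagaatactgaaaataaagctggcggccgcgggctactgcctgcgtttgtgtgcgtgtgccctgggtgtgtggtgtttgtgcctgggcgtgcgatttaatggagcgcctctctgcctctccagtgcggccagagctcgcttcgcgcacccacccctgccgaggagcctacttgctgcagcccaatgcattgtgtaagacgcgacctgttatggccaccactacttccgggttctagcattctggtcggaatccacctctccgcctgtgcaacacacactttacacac
PBX3 chr9:125747933-125748232: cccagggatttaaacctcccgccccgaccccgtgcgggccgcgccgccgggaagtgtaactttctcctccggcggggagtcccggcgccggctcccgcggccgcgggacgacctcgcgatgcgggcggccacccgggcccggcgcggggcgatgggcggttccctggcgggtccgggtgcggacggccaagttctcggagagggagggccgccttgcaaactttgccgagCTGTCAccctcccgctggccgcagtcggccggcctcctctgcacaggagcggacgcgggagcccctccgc
The PBX3 promoter held 43 CpG dinucleotides, more than 95.0% of the 35116 promoters in the table, and 76.0% G or C. The MEIS1 promoter held 18 CpG and 58.3% G or C, near the medians of 14 CpG and 58.7%. PBX3 carried the MEIS core once, on the other strand, beginning 20 bases before the annotated start of its window. MEIS1 did not carry it, and 15.76% of promoters held it on either strand. Neither promoter held TGATTGAT (0.48% of promoters) or TGATTTAT (0.85%), forms of the site shared by PBX and HOX proteins.

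MEIS1 was very high in some lines of the fusion and other AML classes and near the signal floor in others. Levels are given as log2(signal + 16), with 1 array behind each and no replicate error. At 204069_at the level ran from 4.22 in SH-2 to 11.86 in SHI-1, a range of 7.65 log2 units that depends on the added 16 (5.82 with 64 added and 10.01 with 1), with a median of 8.62 and a mean of 8.26 ± 2.53 (SD, 32 arrays). It lay above the array median in 22 lines. In bulk RNA of a culture, fewer expressing cells and less RNA per cell cannot be told apart.

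Among the fusion lines MEIS1 was 11.86 in SHI-1, 11.38 in MV4-11, 11.19 in MOLM-13, 10.79 in NOMO-1, 5.25 in ML-2 and 4.47 in THP-1. The class thus held 4 of the lines with the most MEIS1 and 2 of those with the least, with a gap of 5.54 between them and no line in it. In the erythroid or megakaryoblastic lines the level was 10.51 in KMOE-2, 9.88 in HEL, 9.47 in OCI-M2, 8.95 in F-36P, 8.28 in SET2, 6.75 in MO7E and 6.59 in OCI-M1. All 7 lay above their array median, the lowest 2 barely so, and none reached the fusion class's upper 4.

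Other AML lines covered almost the whole range of MEIS1, from 4.22 to 11.48 with a median of 7.26. GDM-1 (11.48), HNT-34 (11.41), FKH-1 (11.39), OCI-AML2 (10.88), KG-1 (10.62) and GF-D8 (10.21) were as high as the high fusion lines or nearly so. ME-1 (9.04), OCI-AML3 (8.83), MOLM-16 (8.42), EOL-1 (7.26) and OCI-AML5 (6.97) lay in between. NB-4 (6.08), KASUMI-1 (5.94), PL-21 (5.57), KG-1A (5.56), HL-60 (5.08), SKM-1 (5.06), PLB-985 (4.94) and SH-2 (4.22) were below their array medians. By class mean over arrays the order was fusion (9.16 ± 3.35, SD, n = 6), erythroid or megakaryoblastic (8.63 ± 1.51, n = 7) and other AML (7.84 ± 2.57, n = 19), each step smaller than the SD within any class.

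**Figure D1:**
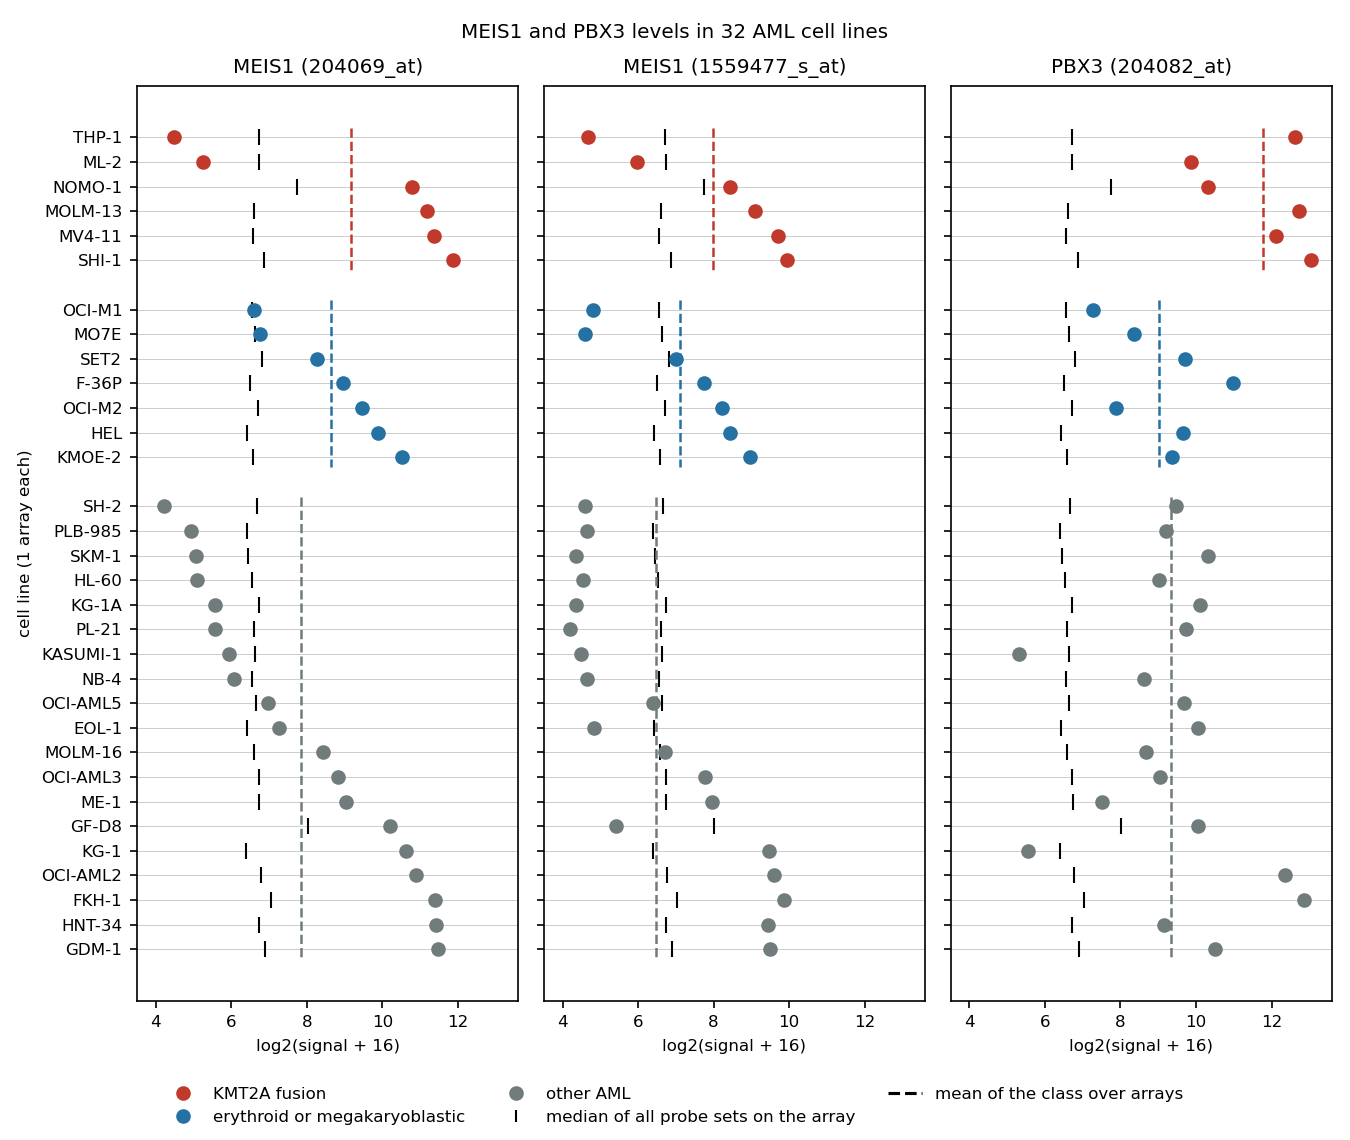
Levels of the 2 MEIS1 probe sets and of PBX3 as log2(signal + 16) on the x axis, with the 32 lines on the y axis in their classes, ordered by MEIS1 204069_at; points are single arrays, black ticks each array's median over all probe sets, dashed lines class means. THP-1 and ML-2 lie far to the left of the other 4 fusion lines for MEIS1, while PBX3 lies right of the tick in 30 lines.

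The second MEIS1 probe set, 1559477_s_at, gave the same picture at a lower level: 4.20 in PL-21 to 9.95 in SHI-1, a mean of 6.89, and 17 lines above the array median. Its Pearson r with 204069_at was 0.918 (Spearman's rho 0.922) over the 30 units, points that share the target gene, the array scaling and the signal floor. Each of the 17 lines was also above its array median at 204069_at. The other 5 lines that 204069_at put above it (EOL-1, GF-D8, MO7E, OCI-AML5 and OCI-M1) were below it at 1559477_s_at. GF-D8 differed most, at 10.21 against 5.42, on an array of high median signal. The probe sets agreed that 10 lines were low, which were HL-60, KASUMI-1, KG-1A, ML-2, NB-4, PL-21, PLB-985, SH-2, SKM-1 and THP-1.

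PBX3 encodes a partner that binds HOX proteins directly. At 204082_at it lay above the array median in 30 of 32 lines, with a mean of 9.72 ± 1.90 (SD) and a median of 9.70. The 2 lines below were KASUMI-1 at 5.33 and KG-1 at 5.55, separated from the next line, OCI-M1 at 7.27, by a gap of 1.73.

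In the fusion lines PBX3 was 13.05 in SHI-1, 12.73 in MOLM-13, 12.61 in THP-1, 12.13 in MV4-11, 10.32 in NOMO-1 and 9.87 in ML-2. THP-1, among the lowest lines for MEIS1, was thus among the highest for PBX3. Of the other 26 lines, FKH-1 at 12.86 and OCI-AML2 at 12.36 also reached 12. The erythroid or megakaryoblastic lines ran from 7.27 in OCI-M1 through a median of 9.36 to 10.99 in F-36P, and the other AML lines from 5.33 in KASUMI-1 through 9.47 to 12.86 in FKH-1. The groups overlapped: 7 of 19 other AML lines and 1 of 7 erythroid or megakaryoblastic lines lay above ML-2, the lowest fusion line. By class mean the order was fusion (11.78 ± 1.35, SD, n = 6), other AML (9.33 ± 1.84, n = 19) and erythroid or megakaryoblastic (9.03 ± 1.27, n = 7), of which the last 2 differed by less than the SD of either. PBX3-DT, the non-coding gene upstream of PBX3, was above the array median in 1 line, GF-D8.

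Whether the lines with a KMT2A fusion express more of the cofactors was asked by setting the 6 fusion lines against the 17 other AML units. PBX3 averaged 11.78 against 9.43, a difference of 2.36 ± 0.69 (SE; 95% interval 0.95 to 3.77), with an unadjusted p of 0.001804 from limma. Over the 54613 probe sets tested it did not pass (Benjamini-Hochberg adjusted p = 0.2781). MEIS1 averaged 9.16 against 7.99 at 204069_at, a difference of 1.17 ± 1.09 (95% interval -1.05 to 3.38, adjusted p = 0.8179), and 7.98 against 6.55 at 1559477_s_at, a difference of 1.43 ± 0.90 (adjusted p = 0.7025). So 0 of the 3 probe sets passed, where 7 of all probe sets (0.0128%) did, all of them higher in fusion lines; at an unadjusted p under 0.05, it was 1 of 3 against 4568 of all (8.36%). The 7 included BEX1, RUBCNL, SNX24, JMJD1C-AS1 and MIR9-3HG. That count rested on single lines: leaving out 1 unit gave 0 to 65, with 0 when NB-4, KG-1/KG-1A, KASUMI-1, OCI-AML5, ME-1, NOMO-1 or FKH-1 was left out and 65 without GF-D8.

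Fusion lines more often had a GAPDH ratio above 2 than other AML lines, and granule and monocyte markers leaned higher in them, though none passed. With the GAPDH ratio as a covariate, the PBX3 difference was 2.40 ± 0.74 (limma adjusted p = 0.4989, against 0.108 to 1 over the other settings). Among arrays with a ratio of 2 or less it was 3.22 ± 1.17 (2 fusion lines against 14 units), and among those above 2 it was 1.83 ± 0.70 (4 against 4). For MEIS1 204069_at the same arrays gave 3.91 ± 1.49 and -0.29 ± 1.68. The fusion lines with a low ratio, MV4-11 and SHI-1, are both high in MEIS1. Of those with a high ratio, ML-2 and THP-1 are low in it, while MOLM-13 and NOMO-1 are high, at 11.19 and 10.79. Over all genes, 11715 of 19775 differences were positive in the fusion comparison, with a median of 0.09. Granule markers such as MPO and ELANE had 7 of 8 positive differences with a median of 2.37. Monocyte markers had 7 of 7 with a median of 0.74. On either list 0 passed, where 0.0202% of all genes rose and 0% fell. The classes overlapped in both: the mean level of the granule markers was 10.74 to 13.44 in fusion lines and 5.97 to 13.30 in other AML lines, and that of the monocyte markers 7.08 to 10.96 and 5.36 to 10.51. The part of these markers in the PBX3 difference was not tested.

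Erythroid or megakaryoblastic lines were set against the same 17 units, so both comparisons share their reference. MEIS1 was 8.63 against 7.99 at 204069_at, a difference of 0.64 ± 1.03 (95% interval -1.46 to 2.74, limma adjusted p = 0.8227), and 0.56 ± 0.85 at 1559477_s_at (adjusted p = 0.8107). PBX3 was 9.03 against 9.43, a difference of -0.40 ± 0.66 (95% interval -1.74 to 0.93, adjusted p = 0.8256). Here 1255 of all probe sets (2.3%) passed, 1.16% higher and 1.13% lower, and 0 of the 3 did; at an unadjusted p under 0.05 it was 0 of 3 against 13.9% of all. Of the markers, 6 of 9 erythroid ones rose, among them GATA1 with 4.82 ± 0.64 (limma adjusted p = 4.29e-05), and 3 of 8 on the granule list fell, the granule protein genes AZU1 and PRTN3 and the G-CSF receptor gene CSF3R. The mean level of the erythroid markers was 8.11 to 12.02 in this class and 6.18 to 11.60 in other AML lines, so the classes overlapped.

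**Figure D2:**
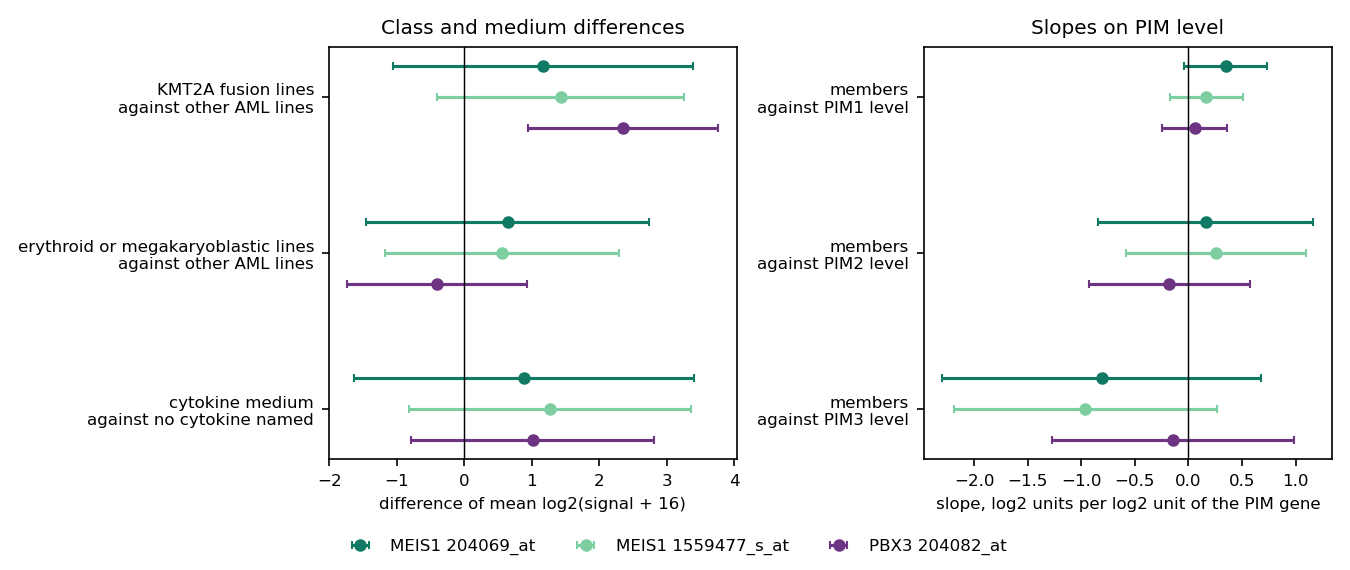
Left, differences in mean log2(signal + 16) between classes or media; right, slopes of each probe set's level on the level of a PIM gene, in log2 units per log2 unit; points are limma estimates, bars 95% intervals. Only the interval of PBX3 in the fusion comparison, 0.95 to 3.77, leaves out 0.

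MEIS1 and PBX3 were only loosely tied to each other. Over the 30 units Pearson's r was 0.396 and Spearman's rho 0.387, a description of points that share array scaling and floor. Averaging joins KG-1 and KG-1A, which go opposite ways in these genes. With sublines kept apart, over 32 arrays, Pearson's r was 0.286. Of 11 lines with MEIS1 at 10 or above, 5 also had PBX3 at 12 or above: SHI-1, MOLM-13, MV4-11, FKH-1 and OCI-AML2. THP-1 had PBX3 at 12.61 with MEIS1 at 4.47, the reverse of KG-1 with 5.55 and 10.62. KASUMI-1 was low in both, at 5.94 for MEIS1 and 5.33 for PBX3.

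**Figure D3:**
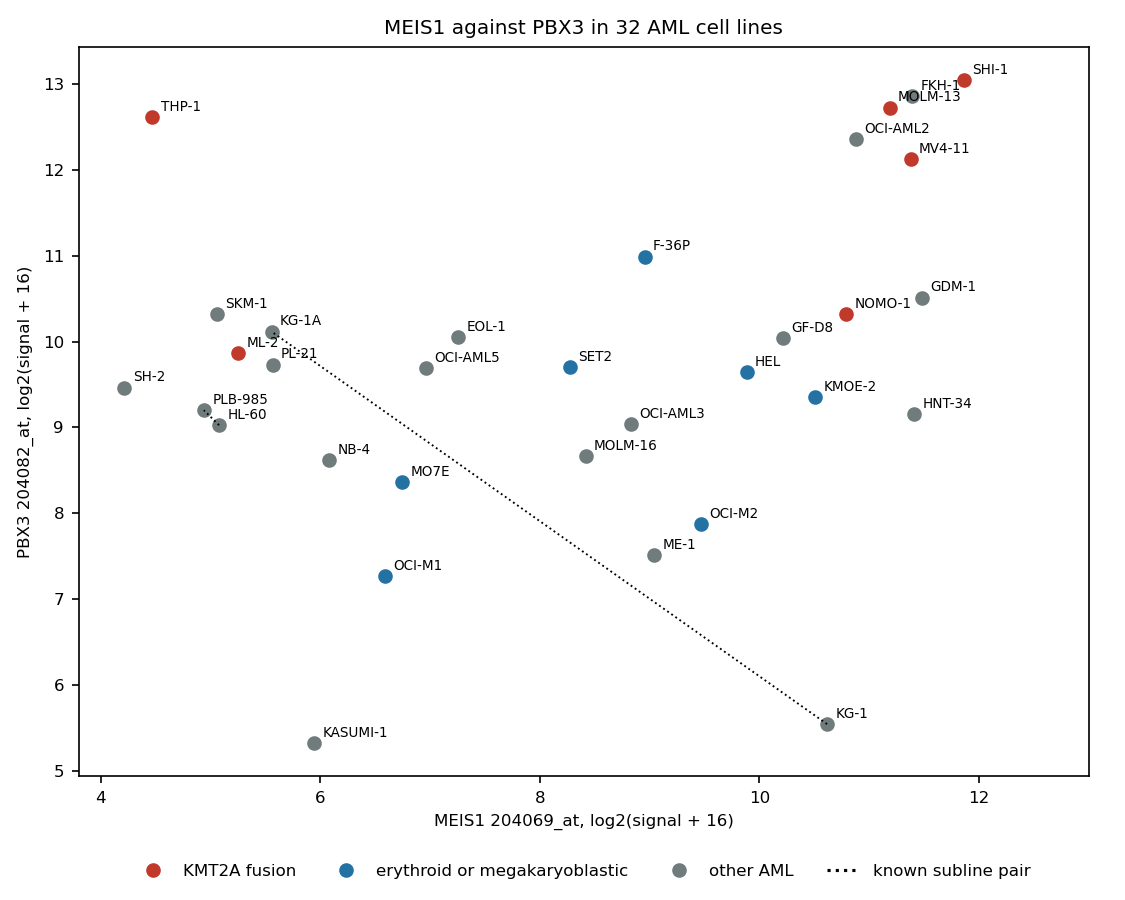
PBX3 204082_at (y axis) against MEIS1 204069_at (x axis), both as log2(signal + 16), with 1 point per line coloured by class and dotted lines joining known sublines. The 5 lines at the upper right hold MEIS1 above 10 and PBX3 above 12. KG-1 lies at the lower right, and KG-1A at the left with PBX3 at 10.12, near the median of 9.70.

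KG-1 and its subline KG-1A differed in MEIS1, PBX3 and MEIS2, a paralogue of MEIS1, by more than nearly all other probe sets did. MEIS1 204069_at was 10.62 in KG-1 and 5.56 in KG-1A, a difference of 5.06, and 1559477_s_at was 9.47 and 4.37, a difference of 5.10. PBX3 went the other way, at 5.55 in KG-1 and 10.12 in KG-1A, a difference of -4.57. MEIS2 moved with PBX3, at 5.78 in KG-1 and 11.83 in KG-1A, a difference of -6.05. The lower level of each pair lay below its array median, so these sizes depend on the added 16. Between these arrays the median probe set differed by 0.447; only 0.269%, 0.421% and 0.104% of probe sets differed by as much as MEIS1 204069_at, PBX3 and MEIS2. Other TALE cofactors were closer: for PBX2 202876_s_at 2.77% of probe sets were as far apart or farther, for PBX4 62.0% and for the 5 probe sets of PKNOX1 36.9% to 94.5%. The arrays were otherwise each other's closest, with r = 0.929 over all probe sets against 0.904 and 0.888 for the next closest. With 1 array per line these differences have no replicate check. The other pair, HL-60 and PLB-985, were not each other's closest arrays (r = 0.921, against 0.924 of HL-60 with NB-4 and 0.922 of PLB-985 with EOL-1), and differed less in these genes: MEIS1 5.08 and 4.94, PBX3 9.03 and 9.20, MEIS2 10.52 and 10.45.

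MEIS2 207480_s_at lay above the array median in 27 lines, from 5.30 in GF-D8 to 12.19 in MOLM-16. The 5 lines below it were GDM-1, GF-D8, KG-1, MO7E and PL-21, and 4 of these had MEIS1 above the median at 204069_at. Of the 10 lines below the array median for MEIS1, 9 had MEIS2 above it, among them THP-1 at 9.86 and ML-2 at 10.73. Of the 22 lines above it for MEIS1, 18 had MEIS2 above it too, so most lines of either kind did. PL-21 alone was below the array median for both, at 5.57 and 5.36, with PBX3 at 9.73. Over the 30 units r between MEIS1 and MEIS2 was -0.033.

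**Figure D4:**
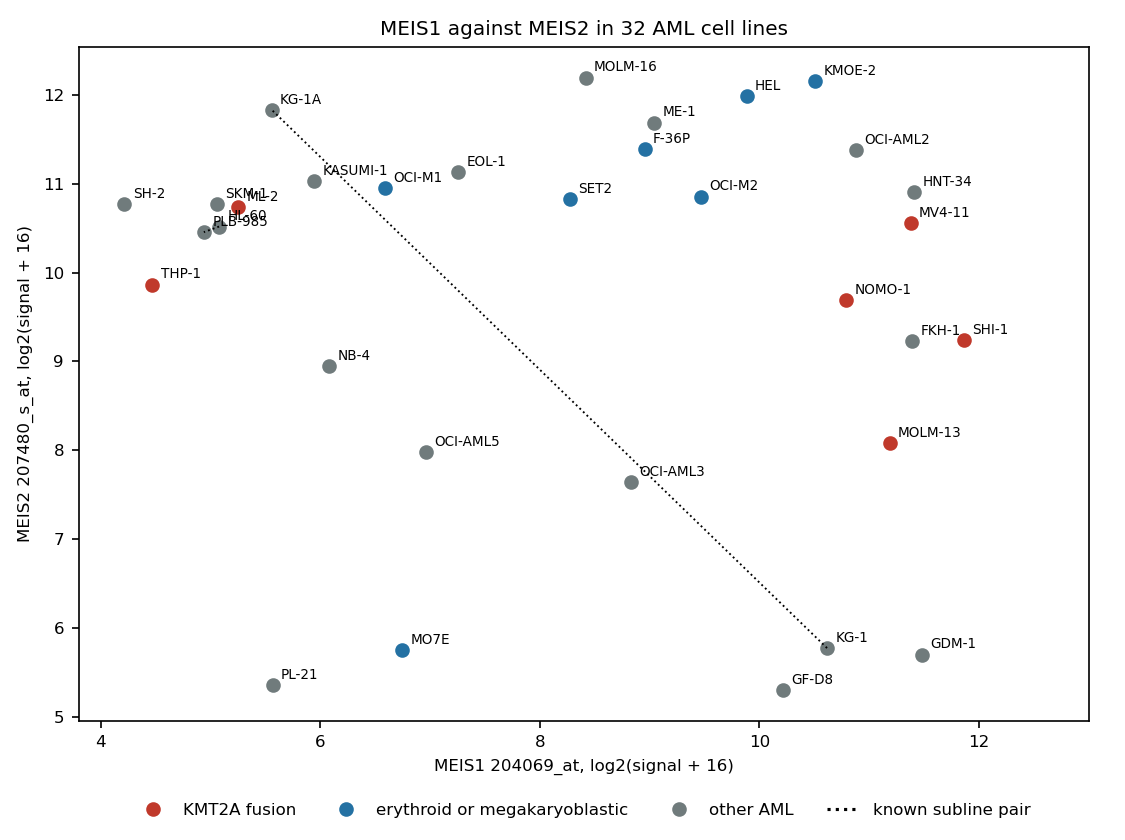
MEIS2 207480_s_at (y axis) against MEIS1 204069_at (x axis), both as log2(signal + 16), 1 point per line coloured by class, dotted lines joining known sublines. PL-21, at the lower left, is the single line below its array median for both genes, and KG-1 and KG-1A lie at opposite corners.

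Of the 7 other TALE cofactor genes measured here, MEIS2 included, 0 rose or fell in any comparison. Over all genes 0.0202% rose and 0% fell in the fusion comparison, and 1.59% and 1.42% in the erythroid or megakaryoblastic one, so a count of 0 says little about so short a list. PBX2 202876_s_at ran only from 8.51 in KG-1A to 11.16 in KASUMI-1, the line with the least PBX3, and was above the array median in all 32 lines. PBX4 230536_at was above it in 6 of 6 fusion lines and 18 lines in all, with a fusion difference of 1.01 ± 0.46 (limma adjusted p = 0.5549). In the fusion comparison the list's median was 0.31 against 0.09 over all genes.

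Transcripts of the HOXA cluster varied among the fusion lines. HOTTIP, a long non-coding RNA from the 5′ end of the cluster, was 9.51 in ML-2, 8.98 in SHI-1 and 8.71 in THP-1 at 1564070_s_at, but 6.87 in NOMO-1, 5.83 in MOLM-13 and 5.81 in MV4-11. The other lines at 8 or above were GF-D8 (10.06), OCI-AML3 (9.65) and NB-4 (8.56), so 3 of 6 fusion lines and 3 of 19 other AML lines were high. In the 7 erythroid or megakaryoblastic lines it did not exceed 5.98. The probe set 1564069_at was above the array median in all 32 lines and 244553_at in 3, ML-2, OCI-AML3 and SHI-1, all of them among the 6 high lines of 1564070_s_at. At 1564069_at the highest levels were 11.48 in GF-D8, 10.52 in NOMO-1, 9.62 in OCI-AML3 and 9.20 in SHI-1.

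HOXA11-AS is antisense to HOXA11. At 239950_at it was 9.44 in GF-D8, 7.90 in OCI-AML3, 7.68 in SHI-1, 7.40 in HNT-34, 7.30 in FKH-1, 7.16 in ML-2 and 7.09 in THP-1, the 7 lines above the array median, and at most 6.43 in the erythroid or megakaryoblastic lines. The brighter probe set, 230666_at, was above the array median in 23 lines. Among them were all 6 fusion lines, at 8.94 in SHI-1, 8.91 in THP-1, 8.91 in NOMO-1, 8.54 in ML-2, 7.95 in MOLM-13 and 6.97 in MV4-11, and 4 of 7 erythroid or megakaryoblastic lines, up to 7.66 in KMOE-2. Fusion lines averaged 8.37 against 7.41 in other AML units at this probe set, a difference of 0.96 ± 0.46 that did not pass (limma adjusted p = 0.5899). For HOXA11-AS 239950_at, r with HOTTIP 1564070_s_at was 0.852 over the 30 units, and 0.822 without NOMO-1 and GF-D8. With the cofactors the tie was loose: r of HOXA11-AS 239950_at with MEIS1 204069_at was 0.356. ML-2 and THP-1 thus combined high HOTTIP 1564070_s_at and HOXA11-AS 239950_at with low MEIS1. MV4-11 and MOLM-13 combined high MEIS1 and PBX3 with low HOTTIP 1564070_s_at. The split did not hold throughout the class: SHI-1 was high in all of these, with MEIS1 at 11.86 and PBX3 at 13.05. THP-1 was also high in PBX3, at 12.61.

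The probe set of HOXA10-AS and MIR196B, 231365_at, was highest in KG-1A (9.47), GF-D8 (9.06) and NOMO-1 (8.04) and above the array median in 16 lines, 0 of them erythroid or megakaryoblastic. There it averaged 5.30 against 6.81 in other AML, a difference of -1.51 ± 0.45 that did not pass (limma adjusted p = 0.06516). HOXA2 was above the array median in 5 lines, with 7.91 in NOMO-1, 7.82 in FKH-1, 7.56 in KG-1, 7.07 in KG-1A and 6.93 in GDM-1. HOXA-AS3 was above it in 6 lines with a highest level of 7.18 in ME-1. The EVX1 probe sets were above it in 1 and 0 lines. HOXA-AS2 was above it in 3 lines at 242528_at (highest 9.32 in GF-D8), in 1 at 230080_at (8.47 in NOMO-1) and in 0 at 1562640_at. The highest level at each of these 5 probe sets was on the array of NOMO-1 or GF-D8.

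Counted by gene at its brightest probe set, the 7 cluster genes had 7 positive differences in the fusion comparison, with a median of 0.13 against 0.09 over all genes. They had 1 positive difference in the erythroid or megakaryoblastic comparison, with a median of -0.47 against -0.09. Of all 19775 genes, 11715 had a positive difference in the fusion comparison and 8143 in the other. In both, 0 of 7 rose and 0 fell, where 0.0202% of all genes rose and 0% fell in the fusion comparison. In the other, 1.59% rose and 1.42% fell, so a count of 0 says little about so short a list. With arrays centred on their medians the median difference of all probe sets moved from 0.084 to -0.053 in the fusion comparison and from -0.125 to 0.012 in the other, shifts as large as the smaller of these list medians.

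**Figure D5:**
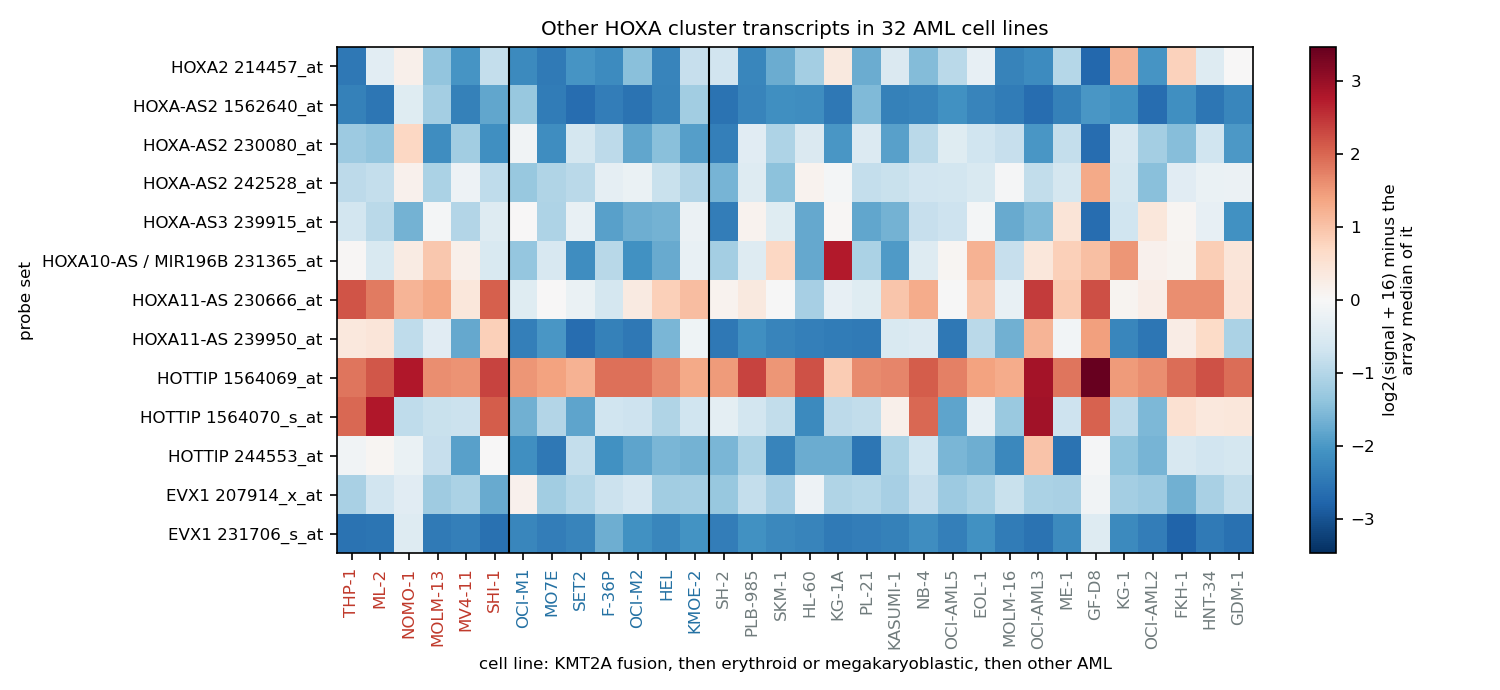
Levels of 13 probe sets of other HOXA cluster transcripts, in the genes' order along the cluster (y axis), in 32 lines (x axis, names coloured by class), as log2(signal + 16) minus the array median. HOTTIP 1564070_s_at and both HOXA11-AS probe sets are red in ML-2, THP-1, SHI-1, OCI-AML3, GF-D8, HNT-34 and FKH-1. The probe set 231365_at is highest in KG-1A.

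Genes that act upstream were taken from a list of the KMT2A complex and its elongation factors. KMT2A itself had 11 probe sets, and 3 of them, 226981_at, 212080_at and 212076_at, read 6.15, 4.78 and 6.40 in ML-2, the only line below its array median there. At the first 2 the other lines ran from 9.20 and 8.12 upwards. ML-2 levels at the remaining KMT2A probe sets are not given here, so these 3 do not stand for the whole gene. In the fusion comparison 0 of 18 list genes rose or fell, where 0.0202% of all genes rose and 0% fell. DOT1L, a histone methyltransferase recruited by fusion proteins, had a difference of 1.02 ± 0.30 at 231297_at, which did not pass (limma adjusted p = 0.2781). That is not the gene's main probe set. The main one, 226201_at, averaged 10.27 over the 30 units against 9.27 at 231297_at, and did not pass either. In erythroid or megakaryoblastic lines ASH2L, a subunit of the complex, rose by 1.36 ± 0.23 (limma adjusted p = 0.0009006), alone of 18, where 1.59% of all genes rose. Of the polycomb genes, which repress HOXA, 0 of 8 passed in either comparison.

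Genes described as targets of HOXA9 or MEIS1 fell in part in the erythroid or megakaryoblastic lines. There 3 of 20 fell and 0 rose, with a list median of -0.31 against -0.09, where 1.42% of all genes fell. FLT3, a receptor kinase, averaged 5.49 against 9.04 and fell by 3.56 ± 0.81 (limma adjusted p = 0.01202). BCL2, which blocks cell death, fell by 2.34 ± 0.54 at 203685_at (adjusted p = 0.01283). The third was a probe set shared by the chemokine genes CCL3, CCL3L1 and CCL3L3, which fell by 2.42 ± 0.58 (adjusted p = 0.01778). In the same comparison MEIS1 204069_at differed by 0.64 ± 1.03 (95% interval -1.46 to 2.74), which does not settle its direction. Granule markers had 8 of 8 negative differences with a median of -3.46, where 8143 of all 19775 genes had a positive one. The classes were set by origin, so the granule markers here do not tell lineage from maturation. The part of MEIS1, of lineage or of maturation in the fall of the 3 genes was not tested, and HOXA9 was not analysed here. In the fusion comparison 0 of 20 passed, where 0.0202% of all genes rose and 0% fell. FLT3 there was 13.17 in MOLM-13, 13.06 in MV4-11, 9.81 in NOMO-1, 9.35 in THP-1, 9.07 in ML-2 and 5.85 in SHI-1, so SHI-1, highest for MEIS1 and PBX3, was the fusion line with the least FLT3.

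PIM1, described as a HOXA9 target, is a kinase that the inhibitors of this series act on. The slope of MEIS1 204069_at on the PIM1 level over 30 units was 0.35 ± 0.19 log2 units per log2 unit (95% interval -0.04 to 0.74, limma unadjusted p = 0.07827, adjusted p = 0.9998), and that of PBX3 was 0.06 ± 0.15. High MEIS1 stood with low and with high PIM1: KMOE-2 had 10.51 with PIM1 at 7.16, and SHI-1 11.86 with 8.78, while MOLM-13 had 11.19 with 12.70 and FKH-1 11.39 with 13.23. Against PIM2 the slopes were 0.16 ± 0.50 for MEIS1 and -0.18 ± 0.37 for PBX3, and against PIM3 they were -0.81 ± 0.73 and -0.15 ± 0.56. None of the 3 probe sets passed in any of these, where 8 (0.0146%), 249 (0.456%) and 16 (0.0293%) of all probe sets did. For PIM2 these were 0.253% with a positive and 0.203% with a negative slope, and for PIM3 0.0128% and 0.0165%. At an unadjusted p under 0.05 the counts were 0 of 3 each time against 5.12%, 16.5% and 15.9%. Those counts too hung on single lines, ranging from 4 (without ML-2) to 11 (without GF-D8), from 0 (without OCI-M1) to 508 (without KMOE-2) and from 1 (without GDM-1) to 539 (without NOMO-1). Arrays centred on their medians gave 7665 for PIM2, with 82.2% of the calls positive against 55.4%, and 3 for PIM3, all positive, against 43.8%.

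Lines grown with an added cytokine had MEIS1 at 10.88 in OCI-AML2, 8.95 in F-36P, 8.83 in OCI-AML3 and 6.97 in OCI-AML5, and PBX3 at 12.36, 10.99, 9.04 and 9.69 in the same order. All 4 were above the array median for both genes. Against the 23 units with no cytokine named, MEIS1 differed by 0.88 ± 1.24 (95% interval -1.64 to 3.40) and PBX3 by 1.02 ± 0.88 (95% interval -0.79 to 2.82), with limma adjusted p = 0.9897 for each. Of all probe sets 1 (0.00183%) passed, 1554018_at of GPNMB, and 0 of the 3 did; at an unadjusted p under 0.05, 0 of 3 and 2277 of all (4.17%) did. Medium and line cannot be told apart here.

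The genes most like MEIS1 and PBX3 in pattern were found by Pearson's r over the 30 units among 11740 genes. For MEIS1 204069_at the highest were WFS1 (0.669), TMEM91 (0.657), AQP2 (0.635), LINC02256 (0.633), SYT15 (0.628), LYRM9 (0.622), ZNF185 (0.621), ATOSB (0.619), KLK3 (0.618) and CD22 (0.612). The lowest were KRTCAP2 (-0.663), ATP6V0B (-0.633), CENPW (-0.596), SNF8 (-0.585) and the mitotic gene CDC20 (-0.571). For PBX3 they were DPYSL2 (0.676), CYTH4 (0.670), TNFSF9 (0.664), ZBED1 (0.662), CX3CR1 (0.661), TYROBP (0.657), RPS6KA1 (0.654), CD70 (0.649), WHAMMP2 (0.643) and ZDHHC13 (0.638), among them the monocyte-lineage genes CX3CR1 and TYROBP, and the lowest SLC25A38 (-0.649), SPRY1 (-0.619), AMMECR1L (-0.581), TBC1D4 (-0.581) and REXO2 (-0.576). No gene was in both sets. These values describe lines that share arrays' scaling and depth of signal, and many genes were searched.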

How the data were processed

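The deposited table gives each probe set's intensity, unlogged. Affymetrix Expression Console is the tool named, per the submitters' processing notes; its version and summarization are not given in the sources used here. The mean after trimming 2% at each end was 500.05 to 500.07 on every array, so the deposited intensities are scaled. Intensities were used as log2(signal + 16) without further scaling. Differences are on that scale, which understates changes of dim probe sets; the number of arrays limits the precision.

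Gene names came from the platform's table: 41091 probe sets had 1 symbol, 1801 several and 11721 none. A gene's main probe set is the one with the highest mean over 30 units.

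Models used R 4.3.3 and limma 3.58.1 (lmFit, eBayes with trend, two-sided) over 54613 probe sets without a filter, with Benjamini-Hochberg adjusted p-values and a threshold of 0.05, and were tested on simulated data. With 1 array per line, p-values measure the spread between lines. Alternatives were pseudocounts of 1 and 64, quantile or median scaling, a filter (above the overall median in at least 3 units), separate sublines, other reference lines, the GAPDH ratio (limit 2), no trend, and leaving out units.

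Members and lists were chosen with earlier results of these data known. Pathway genes named are up to 3 each way per list among those passing; others were chosen after their values were seen. Likeness to HOXA9 was planned but not analysed here, and that to PBX3 was added after seeing the data. Response to PIM inhibitors was not used here. Further marker lists were lymphoid, stromal and epithelial, megakaryocyte and myeloid. In the erythroid or megakaryoblastic comparison 1 of 6, 0 of 8, 1 of 7 and 1 of 6 of their genes passed (NKG7 fell, ITGA2B rose, CEBPA fell). Over all genes 1.59% rose and 1.42% fell there. In the fusion comparison 0 passed on these lists, where 0.0202% of all genes rose and 0% fell.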

Additional observations from a re-analysis of the deposited data

Results flagged for a closer look

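Of 48 groups of 4 to 7 lines examined over 16 probe sets, 7 had a highest line farther from the rest than Dixon's limit allows, where chance gives about 1 in 20. Neither MEIS1 nor PBX3 was among them. In the fusion lines NOMO-1 stood above the others for EVX1 231706_s_at (7.30 against a next highest of 4.27), HOXA-AS2 230080_at (8.47 against 5.47) and HOXA-AS2 242528_at (7.91 against 6.37); its array has a high median signal. In the erythroid or megakaryoblastic lines KMOE-2 stood above for HOXA11-AS 239950_at (6.43 against 4.83). Among the lines grown with a cytokine OCI-AML3 stood above for HOXA11-AS 239950_at (7.90 against 4.26) and HOTTIP 1564069_at (9.62 against 8.41), and OCI-AML5 for HOXA-AS2 1562640_at (4.54 against 4.13), a level close to the floor.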

How the results depend on the processing

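None of the 3 MEIS1 and PBX3 probe sets passed under any of the alternatives that gave a value, 198 values from other settings and 540 from leaving out a unit; 193 and 536 kept their direction. The PBX3 difference in the fusion comparison was 1.83 to 3.22 under other settings and 2.10 to 2.74 with a unit left out (adjusted p 0.1365 to 0.4654). Reversals were small or came from few arrays: only arrays with a GAPDH ratio above 2 gave MEIS1 204069_at -0.29 in the fusion comparison and -4.60 on PIM2 (1559477_s_at -2.06), quantile scaling gave it -0.072 on PIM2, and arrays with a ratio of 2 or less gave PBX3 0.013 on PIM2. With a unit left out, PBX3 slopes ran from -0.0032 to 0.127 on PIM1, from -0.375 to 0.227 on PIM2 and from -0.531 to 0.0919 on PIM3. Here the cause was not tested.

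Counts over all probe sets moved more. For the fusion comparison, 7 became 1 and 24 with pseudocounts of 1 and 64, 11 without NOMO-1 and GF-D8, 0 with the GAPDH ratio as covariate, 2 and 4 on arrays with a ratio of 2 or less and above 2, 11 without OCI-AML3, EOL-1 and FKH-1, 69 against all 24 other units, and 0 to 65 with a unit left out. For PIM1, 8 became 5 with the covariate, 5 on low-ratio and 0 on high-ratio arrays, and 4 to 11 with a unit left out. For PIM2, 249 became 3281 (quantile), 7665 (median), 387 (filter), 32 (covariate), 0 (high ratio) and 0 to 508 with a unit left out. For PIM3, 16 became 2075 (quantile), 3 (median), 309 (filter), 1053 (32 arrays), 26 (without NOMO-1 and GF-D8) and 0 with the covariate and on either set of arrays, and 1 to 539 with a unit left out. For the cytokine comparison, 1 became 0 with either pseudocount, the filter, the covariate and no trend, 2 (median) and 10 (low ratio), and 0 to 8 with a unit left out. The erythroid or megakaryoblastic count of 1255 stayed between 842 and 1767. Quantile and median scaling shifted the median difference of all probe sets there from -0.125 to -0.038 and 0.012, and the share of calls that were higher from 50.7% to 61.5% and 66.2%. The 3 fallen target genes became 2 on low-ratio arrays and without OCI-M2, 4 without GF-D8 and 5 with the covariate; this count's alternatives were chosen after seeing the data. High-ratio arrays alone gave no fit for the erythroid or megakaryoblastic and cytokine comparisons. No paired analysis was possible because each line has 1 array and no replicate numbers are shared.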
